A study of Homo sapiens with 9 samples.

Results

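The genes described here are the transcription factor TFEB and its relatives together with the core machinery of autophagy, 42 genes in all. They were taken by gene symbol, with no measured value in the rule other than a floor of at least 10 counts in at least 3 of the 9 libraries. All 42 pass this floor by the rule, and 16030 of 63187 genes in the whole count table passed it. The relatives TFEC, ATG9B and MAP1LC3C, with at most 3, 2 and 4 counts per library, are outside the set. By role they are the 3 factors TFEB, TFE3 and MITF, 5 genes of the ULK1 initiation complex, 6 of the class III PI3-kinase complex, 5 of phagophore expansion, 9 conjugation and processing enzymes, 6 members of the LC3 and GABARAP family, 5 cargo receptors and 3 fusion and tethering genes.

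Autophagy encloses cytoplasm, protein aggregates and worn organelles in a double membrane, the autophagosome, and delivers them to the lysosome for breakdown. The ULK1 kinase complex starts the process, a lipid kinase complex built on PIK3C3 marks the growing membrane, and a chain of ATG enzymes attaches proteins of the LC3 and GABARAP family to it, to which cargo receptors such as SQSTM1 (p62) bind. TFEB, TFE3 and MITF switch on autophagy and lysosome genes when they enter the nucleus, a step controlled by phosphorylation through mTORC1 at the lysosome surface, so the mRNA level of these factors does not report their activity.

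RNA came from BEAS-2B, a single immortalized line of human bronchial epithelial cells, grown in medium with serum. The libraries fall into untreated control cells, cells exposed for 24 h to condensed aerosol of a carrier mixture of propylene glycol with vegetable glycerine (PG/VG), and cells exposed for 24 h to condensed aerosol of a Virginia tobacco flavored liquid with 18 mg/mL nicotine (EC), both condensates at a dilution of 2% (v/v). Each condition had 3 libraries, numbered 2, 3 and 4, and the labels give the same number as the batch. Nicotine and flavor were present together in EC, so their shares in a difference between EC and PG/VG cannot be told apart.

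The counts assigned to genes ranged from 16168260 to 17882770 per control library, from 18427225 to 24882516 per PG/VG library and from 19318218 to 24917838 per EC library. Levels are given as CPM, counts scaled to a library of 1000000 with TMM factors, and LFC is the log2 fold change fitted by edgeR with batch as a term, with its standard error (SE). Genes were called DEGs below an adjusted p of 0.05 (Benjamini-Hochberg over all 16030 genes tested). The libraries of batch 4 stood apart from the others in every condition. An adjusted p under 0.05 for a difference among the batches was found for 5505 genes (34.3%), and for 0 genes when batches 2 and 3 were compared without batch 4. Of 8 epithelial markers, 7 were tested and the keratins KRT8, KRT18 and KRT7 were abundant and KRT17 had 47.7 to 237 CPM, whereas KRT5 had at most 1 count, CDH1 3 to 31 counts and EPCAM 11 to 47 counts in a library, and the mesenchymal genes VIM and FN1 were high. The immune marker CD3E was at 0 in every library and PTPRC had at most 2 counts. In EC vs. control, 4 of the 7 epithelial markers tested were DEGs (1 upregulated and 3 downregulated). The summed epithelial markers ranged from 1820 to 3020 CPM in control and from 1540 to 2520 CPM in EC. The summed mesenchymal markers ranged from 5050 to 7030 CPM in control and from 3560 to 5470 CPM in EC. FN1, with a mean of 4790 CPM in control and 3220 CPM in EC, made up most of this sum. Of 5 mesenchymal markers tested, 2 were downregulated and 1, PDGFRB, was upregulated (LFC 0.25). COL1A1 had an LFC of 0.17 and was not a DEG, and COL1A2 had at most 10 counts. The part of these marker differences in the results below was not tested.

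In EC vs. control, 3 autophagy genes were upregulated (ULK2, WIPI1 and SQSTM1) and 3 were downregulated (ATG7, MAP1LC3B and MAP1LC3B2). These 6 of 42 (14.3%) stand beside 13.5% of all genes tested, so the share of DEGs was close to the background and is not a result about autophagy genes as a group. By direction, 8.07% of all genes were upregulated and 5.38% downregulated. The median LFC of the 42 genes was −0.028, with 18 above 0 and 24 below, and that of all genes was 0.0078. An unadjusted p under 0.05 was found for 11 of the 42 and for 27.4% of all genes. Between EC and control, 35 of the 42 genes (83.3%) had an absolute LFC under 0.2, as did 59.4% of all genes tested. The libraries of EC and control did not overlap in CPM for 8 of the 42, and 17.3% of all genes tested were apart in this way. In bulk RNA, less of a transcript per cell and fewer cells that express it cannot be told apart, and this holds for every gene below.

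In PG/VG vs. control, ULK2 was upregulated and MAP1LC3B was downregulated. These 2 of 42 (4.76%) stand beside 4.54% of all genes tested, again close to the background, of which 2.63% were upregulated and 1.9% downregulated. The median LFC was −0.0047 among the autophagy genes and 0.013 among all genes. An unadjusted p under 0.05 was found for 8 of the 42 and for 20.1% of all genes, and 7 of the 42 did not overlap between PG/VG and control, beside 14.2% of all genes. In EC vs. PG/VG, 0 of 42 were DEGs in edgeR, where 0.855% of all genes were, 0.555% upregulated and 0.299% downregulated. At an unadjusted p under 0.05 there were 4 autophagy genes and 12.9% of all genes. DESeq2 with batch in the model gave 1 DEG, SQSTM1, beside 167 of all genes. The libraries of EC and PG/VG did not overlap for 4 of the 42 and for 7.91% of all genes. The EC and PG/VG comparisons use the same 3 control libraries, so an LFC of like sign in both is not independent evidence. With the libraries of batch 4 left out, a choice made after seeing the data, the counts were 4 in EC vs. control, 2 in PG/VG vs. control and 1 in EC vs. PG/VG. Without batch as a term in the model, 0 of the 42 were called in each comparison. For these fits the share over all genes is not given here. ComBat-Seq followed by DESeq2 called 9 in EC vs. control, with ATG3, ATG9A and CALCOCO2 added to the 6, beside 3099 of all genes. It called 5 in PG/VG vs. control, with ATG3, GABARAPL2 and ULK1 added to the 2, beside 1682 of all genes. The edgeR fit with batch called 2157 and 727 of all genes in these comparisons. Statements below that a gene was or was not a DEG refer to the edgeR fit with batch unless another tool is named.

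**Figure D1:**
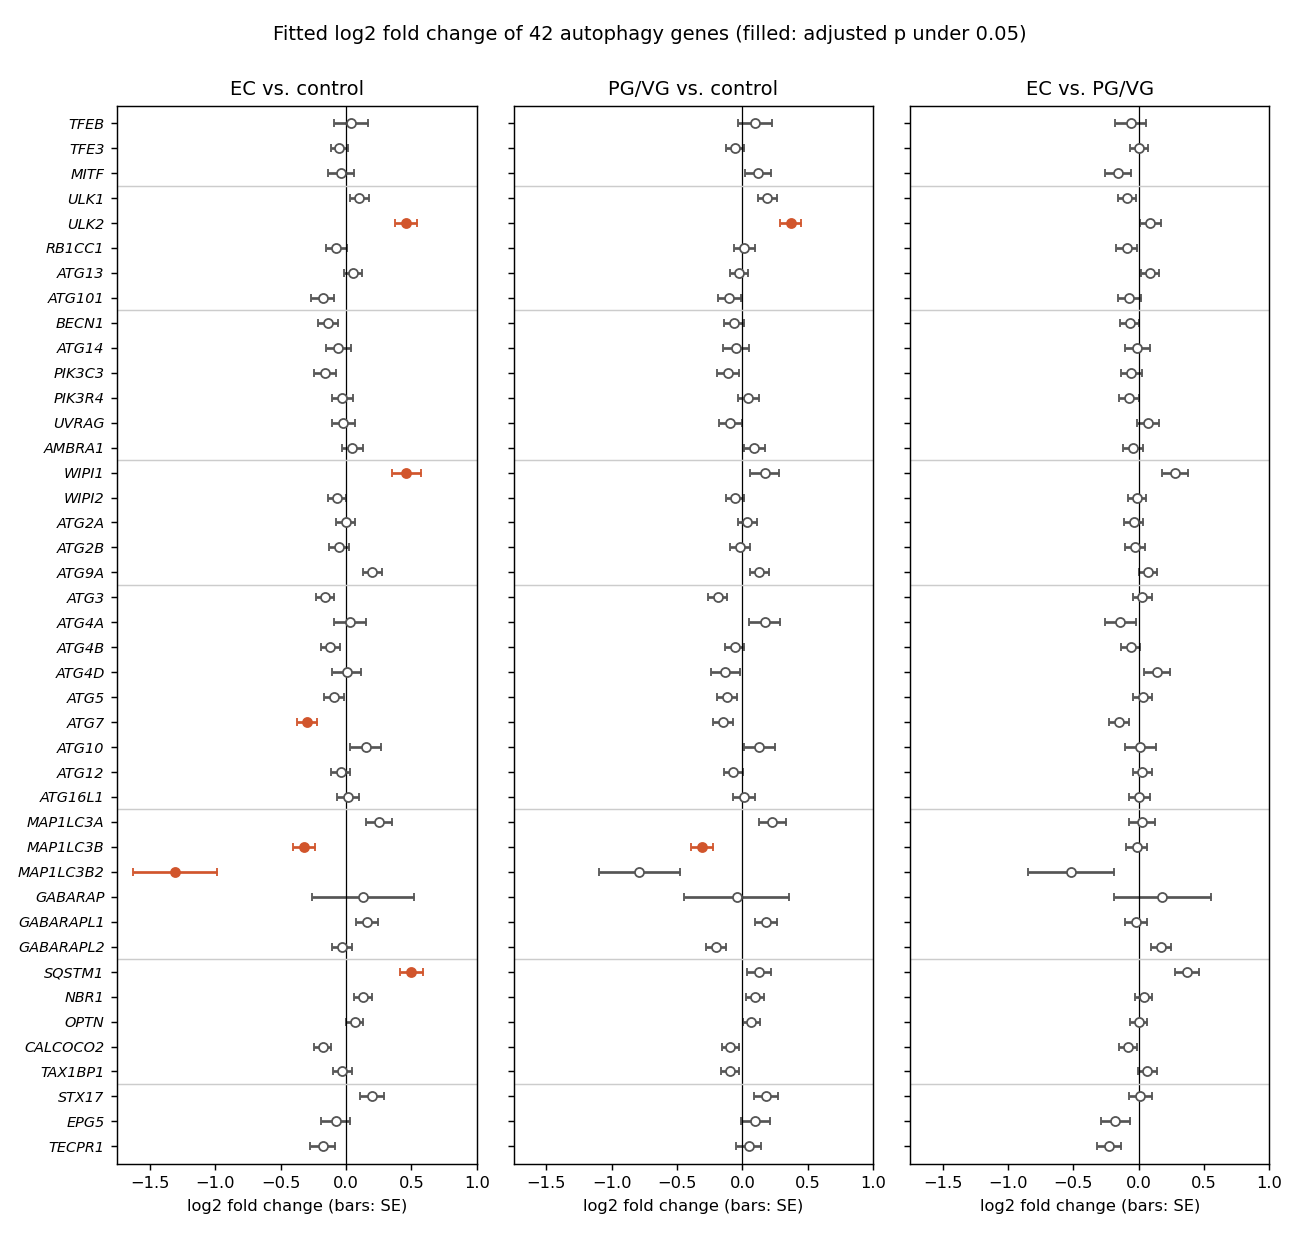
Fitted LFC (log2 scale) of each of the 42 autophagy and TFEB family genes in 3 panels, for EC against control, PG/VG against control and EC against PG/VG, grouped by role, with bars of 1 SE and filled symbols for DEGs. Most symbols lie within 0.2 of the zero line, while MAP1LC3B2 lies lowest at −1.31 and SQSTM1 highest at 0.50 in EC vs. control.

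The 3 factors at the head of the pathway did not pass the test in any comparison. TFEB, on chromosome 6, had 9.85, 10.2 and 5.40 CPM in the control libraries of batches 2, 3 and 4, 11.4, 10.9 and 5.32 CPM with PG/VG, and 12.0, 9.49 and 4.96 CPM with EC. The batch 4 library was the lowest of its condition each time, and the conditions overlapped. The LFC of TFEB was 0.04 (SE 0.13, adjusted p = 0.890) in EC vs. control and 0.10 (SE 0.13, adjusted p = 0.725) with PG/VG.

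TFE3, on the X chromosome, is the family member that was most abundant here, with 34.8 CPM per kb of exon in control on average against 2.31 for MITF and 1.26 for TFEB. Its libraries had 149, 161 and 130 CPM in control, 148, 153 and 122 CPM with PG/VG and 144, 148 and 131 CPM with EC. These ranges overlap almost fully, and the LFC was −0.05 (SE 0.07, adjusted p = 0.682) with EC and −0.06 (SE 0.07, adjusted p = 0.706) with PG/VG. MITF, known as the master factor of pigment cells, had 18.3, 19.7 and 13.5 CPM in control, 20.8, 18.7 and 16.0 CPM with PG/VG and 17.2, 18.7 and 14.0 CPM with EC. Its LFC was −0.04 (SE 0.10, adjusted p = 0.853) with EC and 0.12 (SE 0.10, adjusted p = 0.553) with PG/VG. Low precision for TFEB and MITF leaves a modest difference undetectable at this depth and replicate number.

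Among the genes of the ULK1 initiation complex, 1 of 5 was a DEG in each comparison with control. ULK2, a kinase that shares the starting role with ULK1, lies on chromosome 17 (19770829 to 19867936, minus strand, GRCh38). It had 46.0, 46.7 and 28.4 CPM in control, 59.1, 61.3 and 36.6 CPM with PG/VG and 58.2, 61.6 and 44.7 CPM with EC. Each treated library was above the control of its own batch, although the batch 4 treated libraries were below the control libraries of batches 2 and 3, so the conditions overlapped across batches. ULK2 was upregulated 1.38-fold in EC vs. control (LFC 0.46, SE 0.08, adjusted p = 0.000587) and 1.29-fold in PG/VG vs. control (LFC 0.37, SE 0.08, adjusted p = 0.0105). The EC call held with each of the 9 libraries left out in turn, whereas the PG/VG call held in 6 of 9 and was lost without PG/VG replicate 2, control replicate 3 or control replicate 4, with an adjusted p of up to 0.0987. Between EC and PG/VG the LFC of ULK2 was 0.09 (SE 0.08, adjusted p = 0.707). Its partner ULK1 had an LFC of 0.10 (adjusted p = 0.394) with EC and 0.19 (adjusted p = 0.136) with PG/VG. The scaffold RB1CC1, ATG13 and ATG101 had LFCs between −0.18 and 0.06 in EC vs. control, and none passed the test.

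The class III PI3-kinase complex makes the lipid that marks the forming membrane. None of its 6 genes was a DEG in any comparison. Their LFCs in EC vs. control ran from −0.16 for the catalytic subunit PIK3C3 to 0.05 for AMBRA1, a regulator of the complex. BECN1, its best known subunit, was at 56.8 CPM on average in control, 54.2 CPM with PG/VG and 51.6 CPM with EC. The EC and control libraries of BECN1 did not overlap, but its LFC of −0.14 (SE 0.08) had an adjusted p of 0.252. ATG14, PIK3R4 and UVRAG had LFCs between −0.06 and −0.02 in EC vs. control.

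Phagophore expansion had 1 DEG among 5 genes, WIPI1 in EC vs. control. WIPI1 binds the lipid made by the PI3-kinase and lies on chromosome 17 (68420948 to 68457513, minus strand). Its levels were 12.8, 12.7 and 16.3 CPM in control, 16.5, 13.7 and 16.7 CPM with PG/VG and 16.9, 17.7 and 22.9 CPM with EC. Every EC library was above every control library and above every PG/VG library. WIPI1 was upregulated 1.37-fold in EC vs. control (LFC 0.46, SE 0.11, adjusted p = 0.00613), with log2 differences of 0.40, 0.47 and 0.49 in batches 2, 3 and 4. The call held in 8 of 9 leave-one-out fits and was lost without EC replicate 4 (adjusted p = 0.0628) and without all of batch 4 (LFC 0.42, adjusted p = 0.0545). The LFC was 0.17 (adjusted p = 0.395) in PG/VG vs. control and 0.28 (adjusted p = 0.208) in EC vs. PG/VG. Exons of ARSG and of a non-coding gene overlap 28.1% of the exon length of WIPI1, and the strand setting of the counting is not given in the sources used here. Its relative WIPI2 and the lipid transfer proteins ATG2A and ATG2B had LFCs between −0.07 and 0.00 in EC vs. control. The scramblase ATG9A had an LFC of 0.20 (SE 0.07, adjusted p = 0.0757), with 38.8% of its exon length shared with other genes.

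The conjugation and processing enzymes had 1 DEG among 9. ATG7, the E1-like enzyme that activates both ATG12 and the LC3 family, lies on chromosome 3 (11272309 to 11557665, plus strand). It had 51.9, 54.5 and 47.1 CPM in control, 45.4, 49.0 and 43.8 CPM with PG/VG and 44.2, 44.7 and 35.6 CPM with EC. All EC libraries were below all control libraries, with PG/VG overlapping both. ATG7 was downregulated in EC vs. control to 0.81 of the control level (LFC −0.30, SE 0.08, adjusted p = 0.0116). The call held in 7 of 9 leave-one-out fits and was lost without EC replicate 4 (adjusted p = 0.0712), without control replicate 3 (adjusted p = 0.053) and without all of batch 4 (LFC −0.27, adjusted p = 0.0698). In PG/VG vs. control the LFC was −0.15 (adjusted p = 0.288). VGLL4 overlaps 18.1% of its exon length. The E2-like enzymes ATG3 and ATG10 had LFCs of −0.16 and 0.15 in EC vs. control, and ATG5, ATG12 and ATG16L1, which form the complex that directs LC3 to the membrane, had LFCs of −0.09, −0.04 and 0.02. The proteases ATG4A, ATG4B and ATG4D, which trim LC3 before conjugation, had LFCs between −0.12 and 0.03. None of these passed the test in edgeR, and ComBat-Seq with DESeq2 called ATG3 in both comparisons with control.

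**Figure D2:**
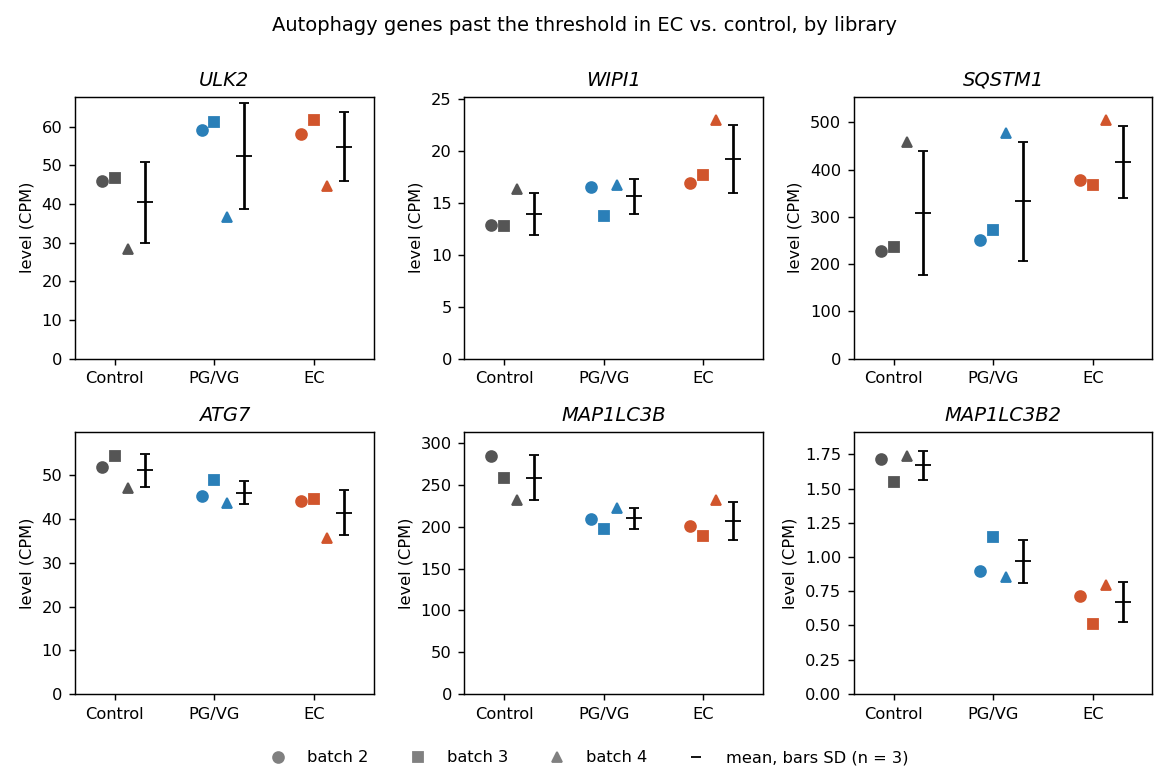
Level in CPM on a linear axis starting at 0 for each of the 9 libraries of the 6 genes that were DEGs in EC vs. control, with symbols for batches 2, 3 and 4 and the mean with bars of 1 SD (n = 3) beside each condition. EC libraries lie above control libraries for WIPI1 and below them for ATG7 and MAP1LC3B2, while the batch 4 libraries of SQSTM1 (459 to 504 CPM) lie above all others in every condition.

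MAP1LC3B and MAP1LC3B2 encode the LC3B protein and a near copy of it. MAP1LC3B lies on chromosome 16 with 4 coding exons and MAP1LC3B2 on chromosome 12 with 1 coding exon. Both ends of the coding sequences, from GENCODE release 44 on GRCh38, are shown because a short read from either gene can match both. Each stretch is 60 bases long, the start covering coding bases 1 to 60 and the end bases 319 to 378. Capitals mark the 2 of 378 bases, at positions 30 and 338, at which the coding sequences differ (99.5% identity):
MAP1LC3B start: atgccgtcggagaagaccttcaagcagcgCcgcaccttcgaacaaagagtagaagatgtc
MAP1LC3B2 start: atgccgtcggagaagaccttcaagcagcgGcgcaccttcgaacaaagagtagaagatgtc
MAP1LC3B end: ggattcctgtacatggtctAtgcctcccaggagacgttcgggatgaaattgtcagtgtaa
MAP1LC3B2 end: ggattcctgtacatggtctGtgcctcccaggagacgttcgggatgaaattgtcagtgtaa
Of all windows of 150 bases in the MAP1LC3B2 transcript, 26.3% occurred without a mismatch in the MAP1LC3B transcript, as did 49.8% of windows of 50 bases. Reads that mapped to more than 1 place were not counted by the authors, so the counts of MAP1LC3B2 rest on the remainder of its transcript.

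MAP1LC3B was downregulated in both comparisons with control. It had 285, 259 and 232 CPM in control, 209, 197 and 222 CPM with PG/VG and 201, 189 and 232 CPM with EC. In batches 2 and 3 the treated libraries were below control, and in batch 4 the 3 conditions were nearly equal, with log2 differences of −0.51, −0.46 and 0.00 for EC and −0.45, −0.40 and −0.06 for PG/VG. The fit over all batches gave an LFC of −0.32 (SE 0.08, adjusted p = 0.0109) in EC vs. control and −0.31 (SE 0.08, adjusted p = 0.0339) with PG/VG. The EC call held in 5 of 9 leave-one-out fits and was lost without replicate 2 or 3 of EC or of control (adjusted p up to 0.0974). The PG/VG call held in 4 of 9 and was lost without any 1 PG/VG library or without control replicate 2 or 3 (adjusted p up to 0.216). With batch 4 left out, the LFCs were −0.50 (adjusted p = 0.00116) and −0.44 (adjusted p = 0.011). EC and PG/VG differed by an LFC of −0.02 (SE 0.08, adjusted p = 0.959).

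MAP1LC3B2 had the largest absolute LFC of the 42 genes and among the fewest counts. Its counts were 27, 25 and 31 in control, 22, 21 and 20 with PG/VG and 18, 12 and 16 with EC, which is 1.72, 1.55 and 1.74 CPM, 0.901, 1.15 and 0.858 CPM, and 0.714, 0.511 and 0.794 CPM. The 3 conditions did not overlap, with control highest and EC lowest. MAP1LC3B2 was downregulated to 0.403 of the control level in EC vs. control (LFC −1.31, SE 0.32, adjusted p = 0.00842), and the call was lost without EC replicate 3 (adjusted p = 0.0567). PG/VG gave an LFC of −0.79 against control (SE 0.31, adjusted p = 0.141). As a share of MAP1LC3B counts, MAP1LC3B2 made up 0.597% to 0.752% in control, 0.386% to 0.583% with PG/VG and 0.271% to 0.356% with EC. Reads that match both copies were not counted, so the counts leave out part of each transcript, and MAP1LC3B2 rests on 12 to 31 counts per library. The part of this in the shares was not tested.

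Per kb of exon, MAP1LC3B was the most abundant of the LC3 and GABARAP family in control, at 51.4 ± 5.28 CPM per kb (SD, n = 3). GABARAPL2 followed at 23.9 ± 2.69, MAP1LC3A at 18.1 ± 1.58 and GABARAPL1 at 6.99 ± 2.16. MAP1LC3B2, at 0.867 ± 0.0551, and GABARAP, at 0.759 ± 0.133, were lowest and the ranges of mean ± SD overlapped. These levels divide by the full exon length, although reads matching more than 1 place or gene were not counted. Other genes overlap 48.2% of the exon length of GABARAP, and MAP1LC3B2 shares sequence with MAP1LC3B. The ranks of these genes are thus ranks of counted reads and may differ from those of the transcripts.

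MAP1LC3A, which encodes LC3A, had 21.0, 22.5 and 18.9 CPM in control, 26.8, 29.5 and 18.1 CPM with PG/VG and 28.3, 25.5 and 21.0 CPM with EC. EC was above control in every batch, and PG/VG was above control in batches 2 and 3 and slightly below it in batch 4. The LFC of MAP1LC3A was 0.25 (SE 0.10, adjusted p = 0.105) with EC and 0.23 (SE 0.10, adjusted p = 0.209) with PG/VG. GABARAPL1 had 33.2, 33.6 and 18.2 CPM in control, 39.0, 37.9 and 20.0 CPM with PG/VG and 35.9, 37.0 and 21.6 CPM with EC. Within a batch the treated libraries of GABARAPL1 were above control, but its LFCs of 0.16 and 0.18 did not pass the test (adjusted p = 0.224 and 0.232). GABARAPL2 had 70.7, 64.4 and 80.5 CPM in control, 56.6, 61.5 and 69.3 CPM with PG/VG and 70.9, 62.4 and 77.8 CPM with EC. It was lower with PG/VG in every batch, by an LFC of −0.20 (SE 0.08, adjusted p = 0.134), and near control with EC (LFC −0.03, adjusted p = 0.847).

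GABARAP itself was hardly counted, with 1.65, 1.61 and 1.18 CPM in control, 0.614, 1.53 and 2.36 CPM with PG/VG and 1.79, 0.894 and 2.28 CPM with EC. Annotated genes overlap 48.2% of its exon length in GENCODE release 44. One of them, a protein-coding gene on the same strand (ENSG00000262526), had 0 counts in every library and the other, on the opposite strand (ENSG00000279641), had 8 to 31. Reads that fell on more than 1 gene were left out of the authors' counting, and the part of this in the low count of GABARAP was not tested. Its LFCs of 0.13 with EC and −0.05 with PG/VG had an SE of 0.39 and 0.40.

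**Figure D3:**
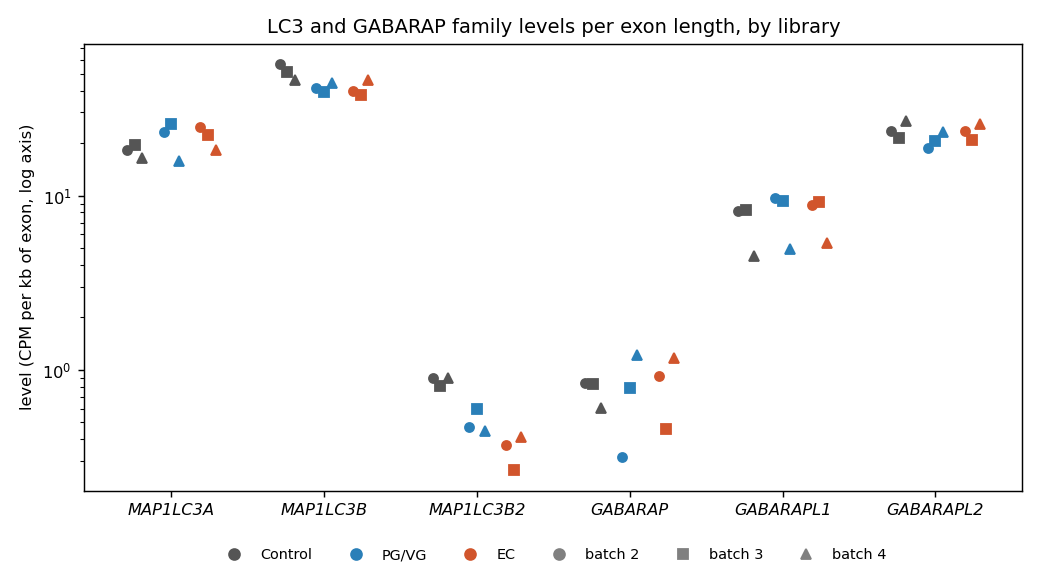
Level in CPM per kb of exon on a log axis for the 6 LC3 and GABARAP family genes in each library. Colors mark the conditions and symbols mark batches 2, 3 and 4. Before division by exon length, MAP1LC3B falls from 285 and 259 CPM in the control libraries of batches 2 and 3 to 201 and 189 CPM with EC. It is 232 CPM in both the control and the EC library of batch 4, and MAP1LC3B2 is separated by condition at under 2 CPM.

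Among the cargo receptors, which link ubiquitin-tagged material to LC3, SQSTM1 was the DEG of 5 genes in EC vs. control. SQSTM1 (p62), on chromosome 5 (179806398 to 179838078, plus strand), had 228, 237 and 459 CPM in control, 250, 272 and 478 CPM with PG/VG and 377, 367 and 504 CPM with EC. Within each batch EC was highest and control lowest, but the control library of batch 4 was above the EC libraries of batches 2 and 3, so the conditions overlapped. It was upregulated 1.42-fold in EC vs. control (LFC 0.50, SE 0.09, adjusted p = 0.00139), a call that held in each of the 9 leave-one-out fits. The difference was uneven among batches, at 0.72, 0.63 and 0.13 on the log2 scale in batches 2, 3 and 4. In PG/VG vs. control the LFC was 0.13 (SE 0.09, adjusted p = 0.470).

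Against PG/VG, SQSTM1 had with EC an LFC of 0.37 (SE 0.09), with log2 differences of 0.59, 0.43 and 0.08 by batch. Its adjusted p of 0.0619 did not pass the threshold, and the call depended on the setting. DESeq2 with batch gave 0.0175, ComBat-Seq with DESeq2 0.00122 and the fit without batch 4 an LFC of 0.51 with 0.00768, while 4 of 9 leave-one-out fits called it. Exons of MGAT4B and MRNIP overlap 22.4% of the exon length of SQSTM1. The other receptors had smaller LFCs in EC vs. control: 0.13 for NBR1, 0.07 for OPTN, −0.03 for TAX1BP1 and −0.18 for CALCOCO2, the last with an adjusted p of 0.0887. None of these 4 was a DEG in edgeR in any comparison, and ComBat-Seq with DESeq2 called CALCOCO2 in EC vs. control.

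The fusion and tethering genes completed the set. STX17, the SNARE of the autophagosome, had an LFC of 0.20 (SE 0.09, adjusted p = 0.163) in EC vs. control with no overlap of the libraries, while the tethers EPG5 and TECPR1 had LFCs of −0.08 and −0.18. In EC vs. PG/VG they had LFCs of −0.18 and −0.23, and none passed the test.

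The batch 4 libraries differed from the rest across much of the pathway. Of the 42 genes, 23 (54.8%) had an adjusted p under 0.05 for batch, beside 34.3% of all genes tested and 42.8% of the 9688 genes with a mean of at least 10 CPM. The median over autophagy genes of the mean level was 49.5 CPM and over all genes 20.5 CPM, so the second background is the nearer in level. In batch 4, 11 of the 23 were higher than in batch 2 and 12 lower, by LFCs from −1.09 to 0.79, while batch 3 differed from batch 2 by −0.18 to 0.18. The 5 with the smallest adjusted p were GABARAPL1 (−0.85 in batch 4 vs. batch 2, adjusted p = 2.66e-08), ULK1 (−0.64, 3.06e-08), CALCOCO2 (−0.59, 3.81e-07), TFEB (−1.09, 1.08e-06) and SQSTM1 (0.79, 1.18e-06). TFEB and SQSTM1 thus moved in opposite directions in the batch 4 libraries. For 28 of the 42 genes, the absolute LFC of batch 4 vs. batch 2 was larger than that of EC vs. control. The share of all genes for which this held is not given here, so it is not a result about autophagy genes as a group. With batch 4 left out, 0 of the 42 differed between batches 2 and 3 in edgeR, as did 0 of all genes.

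**Figure D4:**
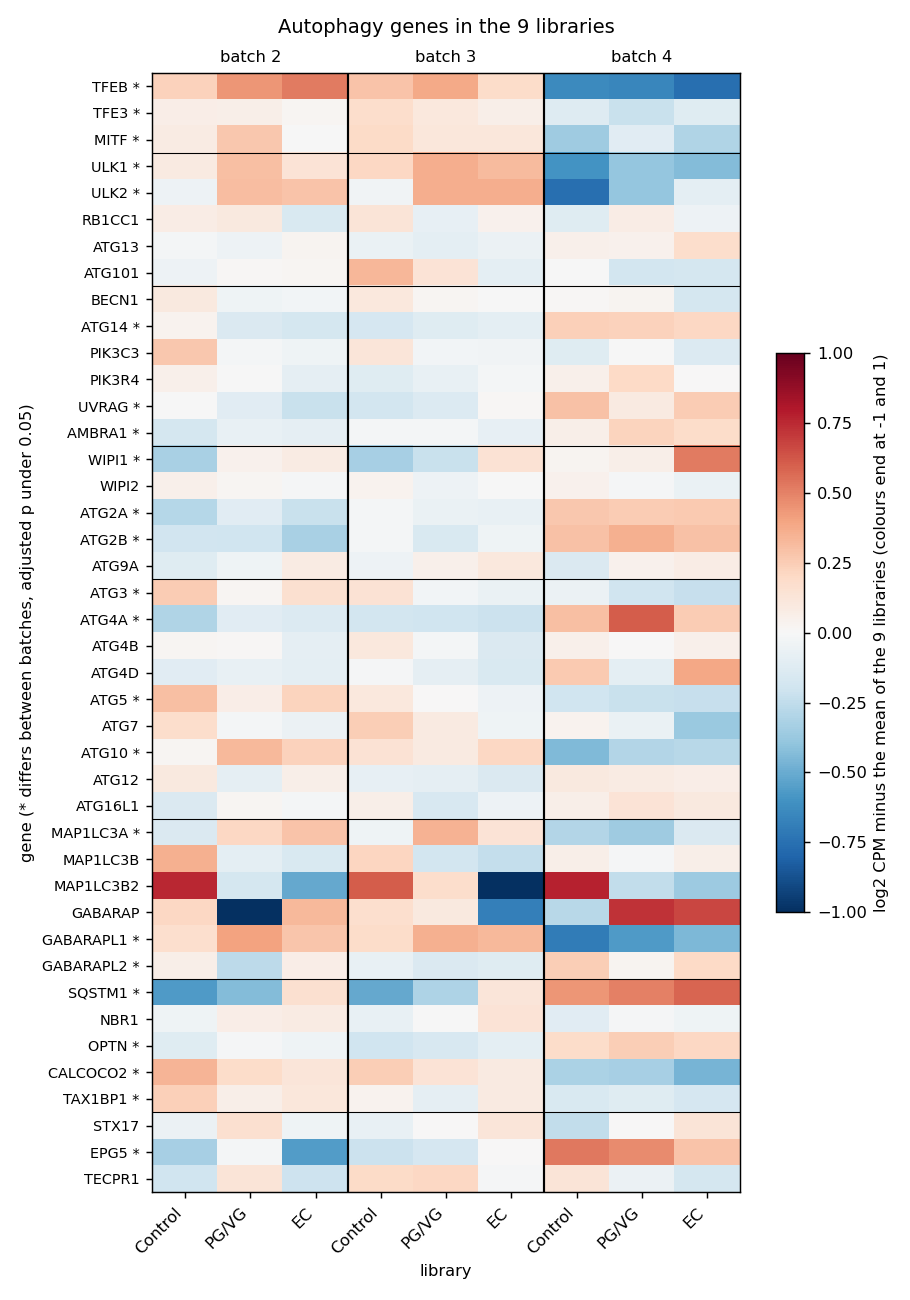
Heat map of the 42 genes by role (rows) in the 9 libraries (columns, ordered by batch and condition), colored by the log2 difference of each library from the mean of the gene over all libraries, with the color scale ending at −1 and 1 and an asterisk on genes that differed between batches. The 3 columns of batch 4 differ from the other 6 in 23 of the 42 rows, among them TFEB, GABARAPL1 and ULK1, which are lower there, and SQSTM1, which is higher.

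Genes around this machinery were read from 5 further lists, with the EC and PG/VG comparisons sharing the controls. Over all genes tested in EC vs. control, 8.07% were upregulated and 5.38% downregulated. Of 13 tested genes among 16 other autophagy core genes, 1 was upregulated in EC vs. control, ZFYVE1 (LFC 0.27, adjusted p = 0.0279), which marks the membrane from which autophagosomes form. Of 15 tested among 16 further selective autophagy receptors, 3 were upregulated and 1 downregulated. The upregulated receptors were RETREG1 (0.75, adjusted p = 0.0374, on 24 to 87 counts per library), TEX264 (0.32, 0.0241) and CCPG1 (0.29, 0.0485). The downregulated one was PHB2 (−0.27, 0.0201), an inner mitochondrial membrane protein. The call of CCPG1 held in 0 of 9 leave-one-out fits, that of ZFYVE1 in 4 and those of the other 3 in 5. Of 18 fusion genes, VAMP8 (0.40, adjusted p = 0.0128) and VPS18 (0.26, 0.0185) were upregulated, both in 5 of 9 such fits. None of the genes on these 3 lists was a DEG in PG/VG vs. control or in EC vs. PG/VG.

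Upstream, 7 of 37 tested genes of the mTORC1, AMPK and folliculin pathways were DEGs in EC vs. control (18.9%, beside 13.5% of all genes), 5 upregulated and 2 downregulated. In PG/VG vs. control 2 of the 37 were called (5.41%, beside 4.54% of all genes). RRAGD, a Rag GTPase that brings mTORC1 and TFEB to the lysosome, had 9.85, 8.36 and 15.8 CPM in control, 11.3, 10.0 and 17.7 CPM with PG/VG and 16.4, 16.0 and 27.9 CPM with EC. EC was highest in each batch and did not overlap control. RRAGD was upregulated 1.78-fold in EC vs. control (LFC 0.83, SE 0.10, adjusted p = 1.83e-05) and 1.54-fold in EC vs. PG/VG (LFC 0.62, SE 0.10, adjusted p = 0.00189), in each of the 9 leave-one-out fits. CASTOR2, an arginine sensor relative, had an LFC of 0.83 in EC vs. control (adjusted p = 0.00169) and 0.60 in PG/VG vs. control (adjusted p = 0.0397). SESN3, a leucine sensor relative, had the largest LFCs, 2.81 and 2.12 (adjusted p = 0.000682 and 0.0256), on 1 to 43 counts per library. The EC calls of CASTOR2 and SESN3 held in each of the 9 leave-one-out fits. With PG/VG, CASTOR2 held in 4 of 9 and was lost without any 1 PG/VG library or without control replicate 2 or 3, and SESN3 held in 5 of 9 and was lost without PG/VG replicate 2 or 4 or control replicate 3 or 4. The calcineurin subunit PPP3CB, part of the phosphatase that acts on TFEB, was downregulated in EC vs. control (LFC −0.42, adjusted p = 0.000775), as was the AMPK subunit PRKAG2 (LFC −0.32, adjusted p = 0.00508).

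Of 26 lysosomal genes known as TFEB targets, 8 were upregulated and 0 downregulated in EC vs. control, with 24 of 26 LFCs above 0 and a median LFC of 0.14. By direction, 8.07% of all genes tested were upregulated, and the median LFC of all genes was 0.0078. The share of all genes with an LFC above 0 is not given here. Of the 26, 13 were above 0 and 13 below in PG/VG vs. control, and 24 and 2 in EC vs. PG/VG. Between batches 21 of the 26 (80.8%) differed, beside 34.3% of all genes and 42.8% of those with a mean of at least 10 CPM. The cause of the common direction was not tested. NEU1, the lysosomal sialidase, had 49.8, 54.4 and 195 CPM in control, 54.5, 56.0 and 204 CPM with PG/VG and 91.4, 82.6 and 251 CPM with EC. It was upregulated 1.53-fold in EC vs. control (LFC 0.61, SE 0.08, adjusted p = 4.98e-05) and was the 1 gene of this list called in EC vs. PG/VG (LFC 0.53, SE 0.08, adjusted p = 0.00139). NEU1 was higher with EC in every batch, although its batch 4 control was above the EC libraries of the other batches. GPNMB, a lysosomal membrane glycoprotein, had 48.7, 43.0 and 61.9 CPM in control and 68.9, 70.2 and 71.3 CPM with EC, an LFC of 0.47 (adjusted p = 0.000871), with no overlap.

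**Figure D5:**
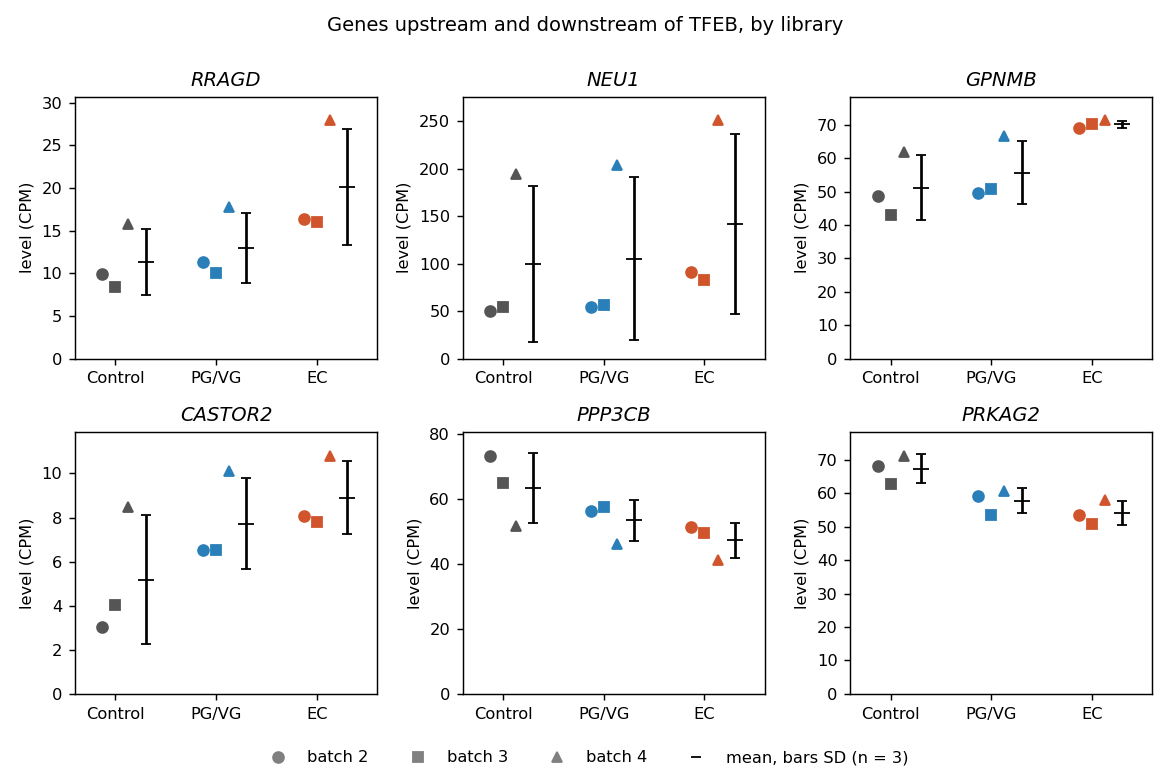
Level in CPM on a linear axis starting at 0 for RRAGD, NEU1, GPNMB, CASTOR2, PPP3CB and PRKAG2 in each of the 9 libraries, with symbols for batches 2, 3 and 4 and the mean with bars of 1 SD (n = 3). EC libraries lie above the control of their batch for RRAGD, NEU1, GPNMB and CASTOR2 and below it for PPP3CB and PRKAG2, and NEU1 is 195 to 251 CPM in batch 4 against 49.8 to 91.4 CPM in batches 2 and 3.

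TFEB and its relatives bind DNA elements with the core CACGTG, which is its own reverse complement. RefSeq promoter windows (GRCh38.p14, 250 bases before to 50 after a gene start) were found for 36 of the 42 genes, with 48 windows. The core occurred in 2 windows (4.17%), those of ATG3 and ATG14, and in 7.26% of 35116 windows of all genes. The longer form TCACGTG, read on both strands and containing the core, occurred in the same windows (4.17%) and in 3.71% of all windows. The matches are shown with 12 bases on each side and the core in capitals, ATG3 at chr3:112561963-112561992 and ATG14 at chr14:55411834-55411863, both on the minus strand:
ATG3: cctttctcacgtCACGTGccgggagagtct
ATG14: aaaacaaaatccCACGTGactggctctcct
Neither gene was a DEG in edgeR, with LFCs of −0.16 and −0.06 in EC vs. control, whereas ComBat-Seq with DESeq2 called ATG3. None of the 6 DEGs, each of which had at least 1 window, held the core. With the core in 7.26% of all windows, 6 genes are too few for this to be a result about the DEGs. Sites outside the windows were not searched.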

How the data were processed

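RNA-seq libraries of BEAS-2B cells were analyzed as 3 groups of 3 by treatment, as given in the sample labels. Per the labels and the paper's methods, the authors used fastp for trimming, STAR for alignment to GRCh38.p12, and counted reads on Ensembl 111 exons with featureCounts of Subread 2.0.4, ignoring multi-mapping and multi-overlapping reads. The deposited values are raw counts for 63187 genes, and all columns were used. Names and exons were taken from GENCODE release 44, where 62666 identifiers matched, and promoter windows from RefSeq.

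In R 4.3.3, genes that reached 10 counts in 3 or more libraries were fitted with edgeR 4.0.16 (TMM, robust quasi-likelihood, condition and batch, all 9 libraries), and p-values were adjusted over 16030 genes. CPM values use TMM-scaled library sizes. Batch equals the replicate number in the labels. Deviations from the condition means correlated between 0.304 and 0.682 in 9 same-numbered pairs and between -0.507 and 0.391 in 18 others. Pairs across batches 2 and 3 correlated at 0.251 to 0.391, and same-numbered pairs of these batches at 0.304 to 0.367. The correlations thus set batch 4 apart and do not show pairing by number between batches 2 and 3. Whether replicates came from separate cultures beyond the batch is not given, and p-values measure the spread between these libraries. Replicates of a condition differed beyond sampling noise (chi-square per gene of at least 3.88). SE was taken as the absolute LFC over the root of the F value.

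The genes, lists and tests were chosen with earlier results of these data known. Every gene of the set is accounted for. Values in every library are given for genes with an adjusted p under 0.05 in a treatment comparison, for TFEB, TFE3, MITF, SQSTM1 and the LC3 and GABARAP family. From other lists, at most 3 DEGs per direction with the largest LFC are named, and 5 genes for batch. A result for a named gene that this rule covers is left out and not reported here. Alternatives were no block, RLE or library-size scaling, other filters, DESeq2 1.42.0, ComBat-Seq (sva 3.50.0) with DESeq2, 2 groups alone, thinning to the smallest library, a threshold of 0.01, each library left out in turn and, chosen after seeing the data, batch 4 left out. The script was checked on simulated counts with known changes.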

Additional observations from a re-analysis of the deposited data

How the results depend on the processing

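With no replicate block, the number of autophagy genes called was 0 in EC vs. control, 0 in PG/VG vs. control and 0 in EC vs. PG/VG. Leaving out 1 library gave 4 to 7 in EC vs. control, 0 to 2 in PG/VG vs. control and 0 to 1 in EC vs. PG/VG. Over all genes these fits called 1163 to 2172, 192 to 1077 and 33 to 209. In EC vs. control the count of autophagy genes was 9 with ComBat-Seq and with library size as the only scaling, and 4 at an adjusted p under 0.01. In PG/VG vs. control it was 5 with ComBat-Seq and 0 at an adjusted p under 0.01. In EC vs. PG/VG it was 1 with the 2 groups alone, ComBat-Seq, DESeq2, library size only, no filter on low counts and batch 4 left out. The other alternatives kept these counts within 1.5 times. Over all genes, ComBat-Seq with DESeq2 called 3099 in EC vs. control, 1682 in PG/VG vs. control and 621 in EC vs. PG/VG. DESeq2 with batch called 167 of all genes in EC vs. PG/VG. Apart from these and the leave-one-out fits, the share over all genes is not given here. The counts are therefore not results about autophagy genes as a group. The median LFC became 0.032 in EC vs. control and 0.023 in EC vs. PG/VG with library size only, where the median of all genes was 0.068 and 0.036. Leaving out 1 library, it ran from −0.043 to −0.013 in EC vs. control, from −0.048 to 0.049 in PG/VG vs. control and from −0.032 to 0.002 in EC vs. PG/VG. Genes differing between batches numbered 18 to 24 with 1 library left out and 0 without batch 4. No LFC of a named gene that passed the test changed sign. Among values for named genes, 1036 kept their side of the threshold, 122 lost it and 13 gained it. The causes were not tested. With 3 libraries per group and counts from 12 per library for MAP1LC3B2, differences of low genes are the least precise.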
